A study of Mus musculus with 24 samples.

Results

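The INK4 and CIP/KIP inhibitors of cyclin-dependent kinases (CDKs) were followed in cultures that the study describes as mouse liver endothelial cells. In these, P16Ink4a had been silenced or overexpressed. The members were the protein-coding entries of the deposited table with the gene names Cdkn2a, Cdkn2b, Cdkn2c, Cdkn2d (the 4 INK4 genes), Cdkn1a, Cdkn1b and Cdkn1c (the 3 CIP/KIP genes). These are 7 of 56748 genes, and they were chosen by name and not by a measured value. The study used female C57BL/6 mice, 3 months old, and names no engineered allele. Liver cells were enriched on magnetic beads for Cd31, which marks endothelial cells in general, or for Cd146, which was used for sinusoidal endothelial cells. They were then grown in culture and transduced with lentiviral particles, so that every group carried a vector, and RNA was taken 1 week later. The P16 shRNA groups received a hairpin against P16Ink4a in the pLKO.1 vector, and the nc shRNA groups a non-coding hairpin. The P16 groups received a P16Ink4a cDNA fused to GFP in the pLenti-C-mGFP-P2A-Puro vector, and the empty vector groups that vector without the cDNA. The 2 populations and 4 constructs made 8 groups of 3 libraries, 24 in all.

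INK4 proteins bind Cdk4 and Cdk6 and keep them from pairing with D-type cyclins, and CIP/KIP proteins bind assembled cyclin-CDK complexes, above all those with Cdk2. Both brakes hold the retinoblastoma proteins in the form that silences E2F targets, and both families are known for arrest of the cell cycle and for senescence. Cdkn2a and Cdkn2b lie next to each other, and Cdkn2a also encodes p19Arf, an unrelated protein that binds Mdm2 and so stabilises p53.

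The table places Cdkn2a at chr4:89192708-89212890 and Cdkn2b at chr4:89224536-89229276, both on the minus strand. Cdkn2c (chr4:109518073-109524386) and Cdkn2d (chr9:21199706-21202703) lie elsewhere on that strand. Cdkn1a (chr17:29309950-29319701) and Cdkn1b (chr6:134897364-134902476) lie on the plus strand and Cdkn1c (chr7:143012076-143014787) on the minus strand. The build of these positions could not be settled: for all 7 genes the GRCm38 annotation gives other positions and the same gene lengths.

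The count of Cdkn2a cannot tell its products apart, and the sequences across the first splice junction of its transcripts, from the GENCODE M21 annotation of GRCm38, show why. The p16Ink4a transcript (852 bases) starts in an exon at chr4:89281986-89282192 and the p19Arf transcript (895 bases) in one at chr4:89294334-89294653, and both continue in the shared exon 2 at chr4:89276645-89276985. They are given 5′ to 3′ on the minus strand, with the own first exon in lower case and the shared exon 2 in capitals.
p16Ink4a: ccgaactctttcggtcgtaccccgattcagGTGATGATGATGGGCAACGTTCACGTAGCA
p19Arf: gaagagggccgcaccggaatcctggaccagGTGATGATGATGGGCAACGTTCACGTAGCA
The transcripts share 575 bases, 67.5% of the p16Ink4a and 64.2% of the p19Arf transcript, and each gene value below is the sum over both. Reads of a p16Ink4a cDNA from the vector can be counted on this gene as well, so that vector and own transcript cannot be told apart with the P16 construct. The target of the hairpin was not given in the sources used here.

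The paralogs share little sequence that short reads could confuse. Over the 21 pairs of members, the longest shared run with varied bases was found between Cdkn2a and Cdkn2b, 23 bases of exon 2 at chr4:89276855-89276877 on GRCm38.
Cdkn2a and Cdkn2b: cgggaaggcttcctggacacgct
Cdkn1a and Cdkn1b also shared a run of 23 bases, which was 1 base repeated, and the other 19 pairs shared runs of 10 to 16 bases. The libraries were not directional, and antisense genes overlap 4 members. Gm12610 over Cdkn2b reached 1.27 to 3.86 CPM (counts scaled to library size), 1700023B13Rik over Cdkn1a 0.264 to 2.62 CPM, ENSMUSG00000120189 over Cdkn2c at most 0.321 CPM, and Gm44732 over Cdkn1c had no count.

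Libraries held 15409767 to 26470392 counted reads (median 20329205), so that 3 counts correspond to 0.113 to 0.195 CPM. In CPM, the 12 mesenchymal and stellate cell markers summed to 6660 to 51200 (Col1a1 461 to 19400, Lrat at most 0.136), the 15 endothelial markers to 314 to 2750 (Stab1 3.63 to 431 with a median of 27.2, Lyve1 0.131 to 7.53, Stab2 at most 0.963, Clec4g at most 0.225), the macrophage markers to 15.6 to 364, the cholangiocyte markers to 38.4 to 982, the hepatocyte markers to at most 2.87 and the lymphoid markers to at most 0.59. Of these sinusoidal markers, Stab2 and Clec4g were at or near 0 in both populations, while Stab1 was detected in every library. The mesenchymal sum had a median of 25600 CPM and the endothelial sum a median of 1000 CPM, and the lowest mesenchymal sum lay above the highest endothelial sum. Mesenchymal transcripts thus outweighed endothelial ones in every library by these lists. Which cells they came from was not tested. In each of the 4 comparisons, the sums of the endothelial, mesenchymal, macrophage and cholangiocyte markers overlapped between construct and control libraries. The lymphoid sums did not overlap in the silencing comparisons (0.0931 to 0.204 CPM with nc shRNA and 0.451 to 0.59 with P16 shRNA in Cd31+ cells, 0.107 to 0.125 and 0.147 to 0.213 in Cd146+ cells), and their part in the results was not tested. Some libraries stand apart: the 3 Cd146+ libraries numbered 3 (nc shRNA, P16 shRNA and P16) held 4.05 to 10.1 CPM of Pecam1, the gene for Cd31, and 3.22 to 11.6 CPM of Mcam, the gene for Cd146. The other 9 Cd146+ libraries held 136 to 274 and 144 to 386 CPM. Cd146+ empty vector library 4 had the lowest sums of mesenchymal and of macrophage markers. Although the mice are described as female, 16 libraries held the Y-linked Ddx3y (at least 986 counts) with at most 4 counts of Xist, and 8 held Xist (at least 6698 counts) and no Ddx3y. The latter were 0 of 3 nc shRNA, 0 of 3 P16 shRNA, 1 of 3 empty vector and 1 of 3 P16 libraries in Cd31+ cells, and 1, 2, 2 and 1 of 3 in Cd146+ cells. In bulk RNA, fewer cells of a type and less RNA per cell cannot be told apart.

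Cdkn2a, the targeted gene, was examined first in every library. In Cd31+ cells, its TMM-normalised level was 58.1, 36.2 and 76.0 CPM with nc shRNA and 9.22, 5.13 and 5.67 CPM with P16 shRNA. The hairpin groups did not overlap, and the silenced mean was 11.8% of the control mean. In Cd146+ cells, Cdkn2a stood at 196, 126 and 94.6 CPM with nc shRNA (libraries 1, 3 and 5) and at 7.80, 11.3 and 25.7 CPM with P16 shRNA (libraries 3, 5 and 6). These groups did not overlap either, and the silenced mean was 10.7% of the control mean. With the empty vector, Cdkn2a stood at 57.7, 32.5 and 80.0 CPM in Cd31+ and at 69.6, 104 and 102 CPM in Cd146+ cells. With P16, it stood at 222, 330 and 137 CPM in Cd31+ cells (libraries 2, 3 and 5) and at 834, 432 and 228 CPM in Cd146+ cells (libraries 1, 3 and 5). Every P16 library lay above every empty vector library of its population. Of all genes tested, 27.4% and 20.5% had groups that did not overlap in silenced Cd31+ and Cd146+ cells. With P16, the shares were 10.7% and 8.55%. The lowest and the highest library of the series differed 163-fold.

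Cdkn2b encodes p15Ink4b, the closest relative of p16Ink4a and a known target of TGF-beta signalling. Its levels ran from 29.9 to 197 CPM, a 6.59-fold range. In Cd31+ cells, it stood at 79.9, 47.0 and 76.8 CPM with nc shRNA, 142, 40.6 and 67.7 CPM with P16 shRNA, 50.2, 29.9 and 72.5 CPM with the empty vector and 42.5, 66.0 and 91.5 CPM with P16. All of these groups overlapped, and library 1 of P16 shRNA was the highest. In Cd146+ cells, it stood at 194, 132 and 88.2 CPM with nc shRNA, 91.0, 126 and 173 CPM with P16 shRNA, 45.7, 63.2 and 100 CPM with the empty vector and 197, 144 and 121 CPM with P16. Only the last pair of groups was separate, as were those of 8.55% of all genes tested.

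Cdkn2c encodes p18Ink4c and Cdkn2d p19Ink4d, which is unrelated to p19Arf. Both are INK4 proteins known for roles in dividing and differentiating cells. In Cd31+ cells, Cdkn2c stood at 33.5, 36.2 and 30.7 CPM with nc shRNA and at 41.5, 39.1 and 42.1 CPM with P16 shRNA. Cdkn2d stood at 15.3, 15.5 and 14.2 CPM with nc shRNA and at 18.8, 21.3 and 22.2 CPM with P16 shRNA. For both genes all 3 silenced libraries lay above all 3 controls, and 27.4% of all genes tested had groups separate in either direction. In Cd146+ cells, Cdkn2d was separate as well (like 20.5% of all genes tested), at 13.5, 16.7 and 17.8 CPM with nc shRNA and 29.5, 22.6 and 30.6 CPM with P16 shRNA. Cdkn2c overlapped there, at 22.7, 34.1 and 28.5 CPM with nc shRNA and 47.8, 30.4 and 40.5 CPM with P16 shRNA. With the overexpression vectors, Cdkn2c stood at 57.0, 37.7 and 35.4 CPM (empty vector) and 33.1, 30.3 and 31.6 CPM (P16) in Cd31+ cells, where the groups were separate (like 10.7% of all genes tested). In Cd146+ cells, it stood at 27.4, 70.7 and 27.9 CPM with the empty vector and 19, 37.4 and 24.4 CPM with P16. The highest of these, 70.7 CPM, belongs to empty vector library 4, which was also the highest of its group for Cdkn2d at 29.9 CPM. In the other libraries with the empty vector or P16, Cdkn2d lay between 15.1 and 21.3 CPM.

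Cdkn1a encodes p21, the inhibitor that p53 induces, and had the highest median FPKM, a level per length, in the control libraries (133 against 65.9 for Cdkn2a). In Cd31+ cells, it stood at 430, 523 and 468 CPM with nc shRNA and at 325, 446 and 355 CPM with P16 shRNA. In Cd146+ cells, it stood at 434, 340 and 581 CPM with nc shRNA and at 206, 403 and 500 CPM with P16 shRNA. Both pairs of groups overlapped. Its 12 levels with the empty vector or P16 lay between 308 and 632 CPM. In Cd146+ cells, the 6 libraries with Xist had a median of 541 CPM (308 to 632) and the 6 others a median of 373 CPM (206 to 496). The part of this in the results for Cdkn1a was not tested beyond a fit with a term for Xist, given with the silencing results.

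Cdkn1b encodes p27, whose amount is known to be set largely by protein turnover, and varied least, from 51.5 to 86.8 CPM (1.69-fold). In Cd31+ cells, it stood at 81.4, 82.6 and 70.7 CPM with the empty vector and at 53.3, 61.8 and 61.5 CPM with P16. These groups did not overlap, like those of 10.7% of all genes tested. Cdkn1c, the imprinted gene of p57, was barely detected: 0 to 56 counts per library with a median of 5, and 10 of 24 libraries had 3 counts or fewer. Its highest count, 56, was again in Cd146+ empty vector library 4. It passed the filter on low counts in the Cd146+ silencing comparison and in the fits of the differences over all 24 libraries, and its fold changes are not interpreted at these counts.

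**Figure D1:**
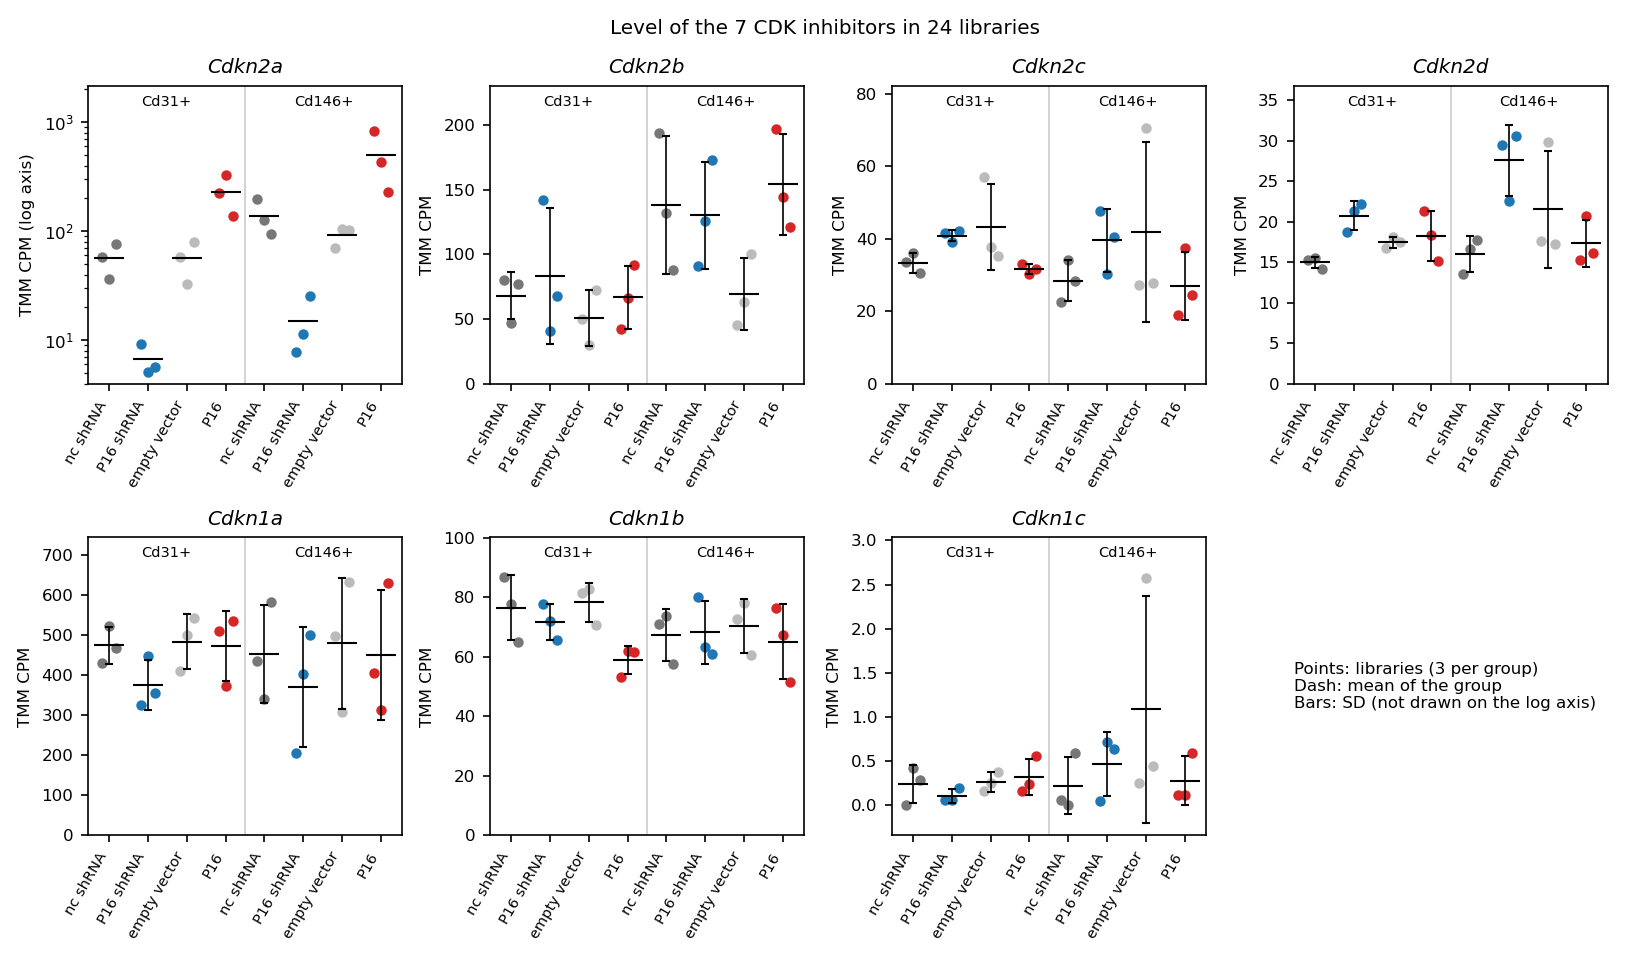
TMM-normalised CPM of the 7 inhibitors in the 24 libraries, by population and construct (log axis for Cdkn2a, linear axes from 0 or just below for the others). Points are libraries, dashes means of 3 libraries and bars SD; Cdkn2a spans 5.13 to 834 CPM and follows the construct in both populations, while Cdkn1b stays between 51.5 and 86.8 CPM.

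When the 8 groups were ordered by the mean of each gene, most neighbours could not be separated. For Cdkn2a, the order ran from Cd146+ P16 (498 ± 308 CPM, SD, n = 3) over Cd31+ P16 (230 ± 96.7), Cd146+ nc shRNA (139 ± 52.1), Cd146+ empty vector (92.0 ± 19.4), Cd31+ nc shRNA (56.8 ± 19.9) and Cd31+ empty vector (56.8 ± 23.7) to Cd146+ P16 shRNA (14.9 ± 9.50) and Cd31+ P16 shRNA (6.67 ± 2.23). The ranges of neighbours overlapped in 6 of 7 steps, and the gap lay between Cd31+ empty vector and Cd146+ P16 shRNA. For each of the other 6 genes, all 7 steps overlapped. For Cdkn2b, the 3 highest means belonged to Cd146+ P16 (154 ± 38.9), nc shRNA (138 ± 53.3) and P16 shRNA (130 ± 41.4), and the lowest to Cd31+ empty vector (50.9 ± 21.3). Cdkn2d was highest with P16 shRNA in Cd146+ cells (27.6 ± 4.32) and lowest with nc shRNA in Cd31+ cells (15 ± 0.689). The means of Cdkn1a ran from 370 ± 150 (Cd146+ P16 shRNA) to 483 ± 68.3 (Cd31+ empty vector), and the P16 shRNA groups took the last places of both populations.

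The first comparison asked how the inhibitors responded in Cd31+ cells when P16Ink4a was silenced. Cdkn2a fell 8.46-fold with P16 shRNA (log2 fold change -3.08 ± 0.35, SE; edgeR adjusted p = 0.0218). It was the 1 of 6 tested members past an adjusted p of 0.05, a threshold that 1.3% of all genes tested passed. Cdkn2a is the gene that the constructs target or carry. Its place in this and the later counts of members per construct was given by the design and says nothing about the other members. The call of Cdkn2a depended on which libraries were kept. Leaving out nc shRNA library 1 or 3 or P16 shRNA library 1, 2 or 3 gave log2 fold changes of -3.39 to -2.81 and edgeR adjusted p-values of 0.0672 to 0.125. It held without nc shRNA library 2 (edgeR adjusted p = 0.041). Cdkn2d was 0.47 ± 0.12 higher on the log2 scale (edgeR adjusted p = 0.108) and Cdkn2c 0.30 ± 0.10 higher (edgeR adjusted p = 0.184). An unadjusted p under 0.05 was reached by 3 of 6 members and by 19.8% of all genes. Cdkn1a differed by -0.33 ± 0.15 (edgeR adjusted p = 0.28), Cdkn2b by 0.30 ± 0.47 (95% interval -0.85 to 1.46) and Cdkn1b by -0.09 ± 0.13 (95% interval -0.40 to 0.23). The groups did not overlap for 3 members, Cdkn2a, Cdkn2c and Cdkn2d, and for 27.4% of all genes tested (p = 0.1 for each in a two-sided exact permutation test, and 3 against 3 libraries allow no smaller value).

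Libraries of the same number deviated together within a population, and a fit with the number as a block over the 12 Cd31+ libraries called 3 members at an edgeR adjusted p under 0.05, against 16.8% of all genes. Besides Cdkn2a (-3.06 ± 0.42, adjusted p = 0.00366), these were Cdkn2d (0.46 ± 0.12, adjusted p = 0.0251) and Cdkn1a (-0.35 ± 0.10, adjusted p = 0.0281). With the block and only the 6 libraries of both groups, the edgeR adjusted p of Cdkn2d was 0.0321 and that of Cdkn1a 0.031, and 18.8% of all genes passed 0.05.

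In Cd146+ cells, the same question gave a similar size for Cdkn2a, -3.21 ± 0.53 on the log2 scale or 9.28-fold lower, at an edgeR adjusted p of 0.361. No member and 0.0% of all genes passed an adjusted p of 0.05 in edgeR, whereas DESeq2's Wald test gave Cdkn2a an adjusted p of 6.9e-08 and called no other member, against 1.16% of the genes with an adjusted p there. Cdkn2d was 0.78 ± 0.20 higher (edgeR adjusted p = 0.382). An unadjusted p under 0.05 was reached by 2 of 7 members and by 11.6% of all genes. Cdkn2c differed by 0.48 ± 0.24 (edgeR adjusted p = 0.465), Cdkn1a by -0.28 ± 0.37, Cdkn2b by -0.08 ± 0.36 (95% interval -0.93 to 0.77) and Cdkn1b by 0.02 ± 0.19 (95% interval -0.42 to 0.46). The groups did not overlap for 2 members, Cdkn2a and Cdkn2d, and for 20.5% of all genes tested. The block over the 12 Cd146+ libraries called 3 members against 8.33% of all genes: Cdkn2a (-3.39 ± 0.37, edgeR adjusted p = 0.0105), Cdkn2d (0.59 ± 0.14, adjusted p = 0.0377) and Cdkn1a (-0.65 ± 0.10, adjusted p = 0.00779). With the block and only the 6 libraries of both groups, their edgeR adjusted p-values were 0.0994, 0.248 and 0.185, and 0.0% of all genes passed 0.05.

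The value of Cdkn1a in this comparison moved with the libraries and with Xist. Without P16 shRNA library 3, its log2 fold change was 0.00 ± 0.28, and a fit with a term for Xist gave -0.64 ± 0.23 (edgeR adjusted p = 0.412). Without the Cd146+ libraries numbered 3, which hold few endothelial transcripts, Cdkn2a differed by -2.98 ± 0.54 and Cdkn2d by 0.76 ± 0.30 (edgeR adjusted p = 0.529 for both, with an unadjusted p under 0.05, which 9.05% of all genes reached), Cdkn2c by 0.47 ± 0.28, Cdkn2b by 0.08 ± 0.41, Cdkn1a by -0.17 ± 0.29 and Cdkn1b by -0.05 ± 0.25. The changes of Cdkn2a and Cdkn2d were thus of like size without these libraries.

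The hairpin libraries were also set side by side by number. How many of all genes go in the same direction in every pair was not counted, so the counts below have no background. Of the 5 pairs of P16 shRNA and nc shRNA libraries (3 in Cd31+ and 2 in Cd146+ cells), Cdkn2a was lower in 5 of 5, at 0.062 to 0.159 of its partner. Cdkn2c was higher in 5 of 5 (ratio 1.07 to 1.40), Cdkn2d was higher in 5 of 5 (1.23 to 1.77), and Cdkn1a was lower in 5 of 5 (0.607 to 0.852). Cdkn2b was higher in 2 and lower in 3 (0.69 to 1.78), and Cdkn1b was higher in 3 and lower in 2 (0.894 to 1.1). The widest ratios of Cdkn2a, Cdkn2c, Cdkn2d and Cdkn1a all came from the pair of Cd146+ libraries numbered 3.

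**Figure D2:**
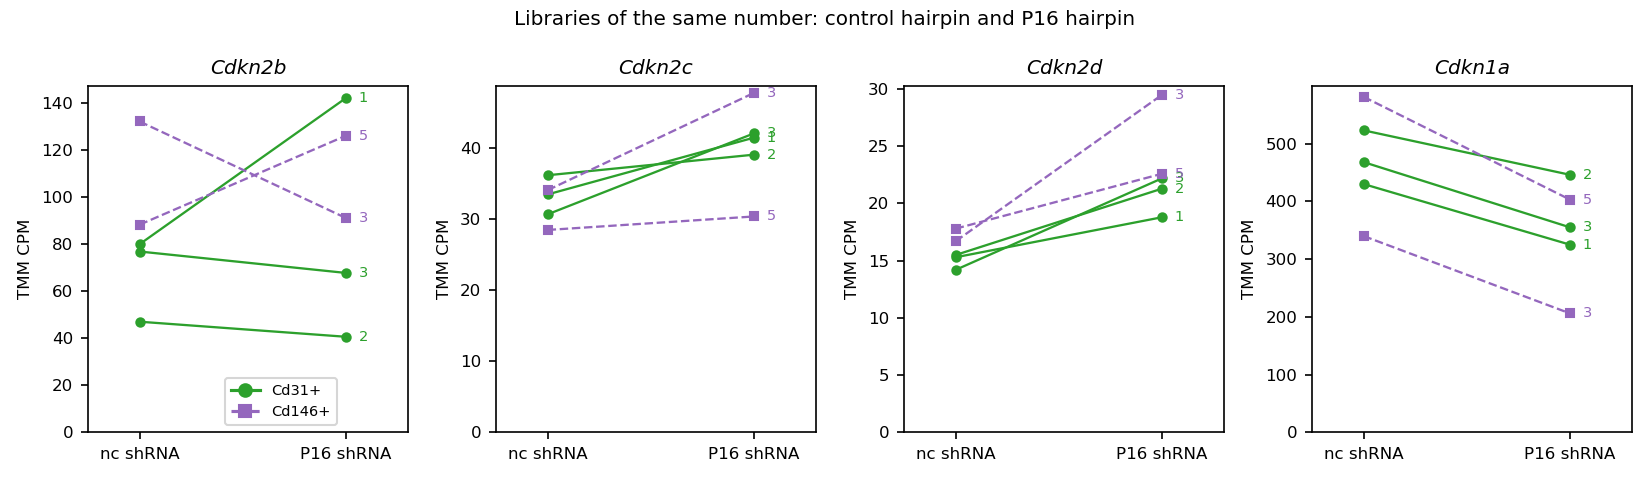
TMM-normalised CPM of Cdkn2b, Cdkn2c, Cdkn2d and Cdkn1a in the 5 pairs of nc shRNA and P16 shRNA libraries that share a population and a number (printed at the right), with linear axes from 0. The lines rise in 5 of 5 pairs for Cdkn2c and Cdkn2d, fall in 5 of 5 for Cdkn1a and go both ways for Cdkn2b. The share of all genes that rise or fall in every pair was not counted.

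The overexpression comparisons asked whether more P16Ink4a altered the other inhibitors. In Cd31+ cells, Cdkn2a was 4.05-fold higher with P16 than with the empty vector (log2 fold change 2.02 ± 0.43; edgeR adjusted p = 0.947). No member and 0.0% of all genes passed an adjusted p of 0.05 in edgeR, and DESeq2's Wald test called 1 member, Cdkn2a, at an adjusted p of 0.00303, and 0.0123% of all genes. The block over 12 libraries gave Cdkn2a 1.98 ± 0.41 (edgeR adjusted p = 0.267) and called no member and 0.00648% of all genes. The block with only the 6 libraries of both groups, in which the numbers 2 and 5 form pairs, gave 1.77 ± 0.25 (edgeR adjusted p = 1.1e-07), and 0.632% of all genes passed 0.05. An unadjusted p under 0.05 was reached by 2 of 6 members and by 3.73% of all genes. The second was Cdkn1b, -0.40 ± 0.12 on the log2 scale (edgeR adjusted p = 0.947), which no longer passed the unadjusted threshold without empty vector library 2 (-0.36 ± 0.15). Cdkn2c differed by -0.44 ± 0.19 (edgeR adjusted p = 0.947), and by -0.21 ± 0.14 without empty vector library 1, the highest of its group. Cdkn2b differed by 0.40 ± 0.40, Cdkn2d by 0.07 ± 0.15 (95% interval -0.30 to 0.44) and Cdkn1a by -0.03 ± 0.20 (95% interval -0.49 to 0.44). The groups did not overlap for 3 members, Cdkn2a (above), Cdkn2c and Cdkn1b (both below), and for 10.7% of all genes.

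In Cd146+ cells, Cdkn2a was 5.42-fold higher with P16 (log2 fold change 2.44 ± 0.50; edgeR adjusted p = 0.986). Again 0 members and 0.0% of all genes passed an adjusted p of 0.05 in edgeR, and DESeq2's Wald test called Cdkn2a (adjusted p = 0.0331) and 0.00618% of all genes. Cdkn2b was 2.21-fold higher (1.14 ± 0.35; edgeR adjusted p = 0.986). These were the 2 of 6 members with an unadjusted p under 0.05, against 3.53% of all genes, and also the 2 members whose groups did not overlap, against 8.55%. Of these 2, Cdkn2a is the gene that the construct carries, so that only Cdkn2b bears on the other members. The block over 12 libraries gave smaller values, 1.58 ± 0.45 for Cdkn2a and 0.31 ± 0.30 for Cdkn2b (edgeR adjusted p = 1 for both), and the latter did not pass the unadjusted threshold. The value of Cdkn2b was 0.91 ± 0.36 without P16 library 1 (edgeR adjusted p = 0.998, and not past the unadjusted threshold). The 1 pair with a shared number, 5, had a ratio of 1.21 for Cdkn2b and 2.23 for Cdkn2a. Cdkn2c differed by -0.65 ± 0.45 and Cdkn2d by -0.31 ± 0.27, and without empty vector library 4 these values were -0.04 ± 0.31 and 0.00 ± 0.21. Cdkn1a differed by -0.09 ± 0.38 (95% interval -1 to 0.82) and Cdkn1b by -0.11 ± 0.19 (95% interval -0.56 to 0.34). Without the libraries numbered 3, Cdkn2a differed by 2.55 ± 0.57 and Cdkn2b by 1.21 ± 0.40 (edgeR adjusted p = 1 for both, with an unadjusted p under 0.05, which 1.54% of all genes reached), Cdkn2c by -0.93 ± 0.51, Cdkn2d by -0.44 ± 0.31, Cdkn1a by 0.13 ± 0.38 and Cdkn1b by -0.12 ± 0.23.

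Over the 3 numbered pairs of P16 and empty vector libraries (2 in Cd31+ and 1 in Cd146+ cells), Cdkn2a was higher by ratios of 1.72 to 6.84 and Cdkn2b by 1.21 to 1.42. Cdkn2c (0.873 to 0.895) and Cdkn1b (0.645 to 0.869) were lower in all 3. Cdkn1a stayed at 0.984 to 1.02 of its partner. For these pairs too, the share of all genes that go in the same direction in every pair was not counted.

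**Figure D3:**
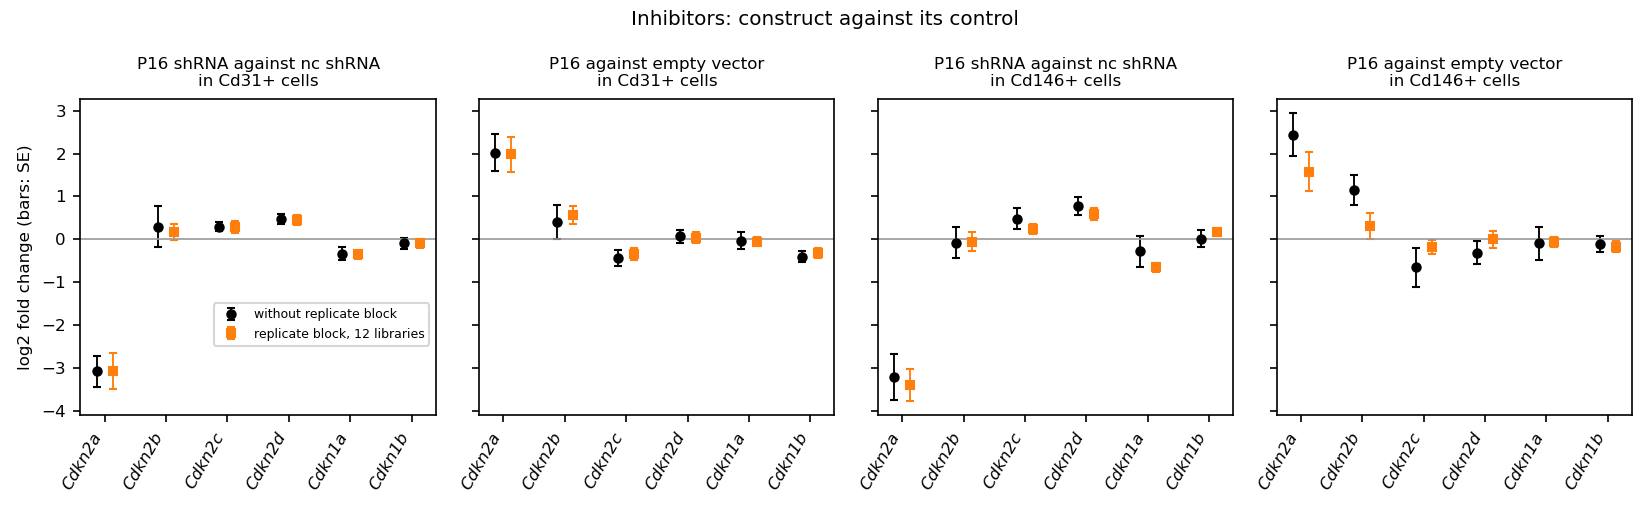
Log2 fold change of 6 inhibitors in each of the 4 comparisons, from edgeR without a block (black circles) and with the replicate number as a block over the 12 libraries of the population (orange squares). Bars are SE; in the silencing comparisons Cdkn2a lies at -3.08 and -3.21, and the blocked values of Cdkn1a at -0.35 and -0.65.

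Whether an effect differed between the populations was tested over all 24 libraries. No member had an adjusted or an unadjusted p under 0.05 for either construct in edgeR or in DESeq2's Wald test. Of all genes, 0.0% passed the adjusted threshold for both constructs, and 1.20% (P16 shRNA) and 3.82% (P16) the unadjusted one. For the P16 shRNA effect, Cd146+ minus Cd31+ cells, the log2 difference was -0.13 ± 0.71 for Cdkn2a (95% interval -1.62 to 1.36), 0.31 ± 0.28 for Cdkn2d and 0.05 ± 0.44 for Cdkn1a. With the block, the last value was -0.30 ± 0.14 (edgeR adjusted p = 0.986, with an unadjusted p under 0.05). For the P16 effect it was 0.42 ± 0.70 for Cdkn2a (95% interval -1.04 to 1.88) and 0.76 ± 0.63 for Cdkn2b (95% interval -0.56 to 2.07). These intervals are wide enough to hold sizeable differences in both directions.

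The populations were also compared in the 12 libraries with control constructs, with the construct as a term. Cdkn2a was 1.00 ± 0.28 higher on the log2 scale in Cd146+ than in Cd31+ cells, or 1.99-fold (edgeR adjusted p = 0.148). Cdkn2b was 0.74 ± 0.29 higher, or 1.67-fold (edgeR adjusted p = 0.237). These neighbours were the 2 of 6 members with an unadjusted p under 0.05, against 17.5% of all genes. No member and 0.0% of all genes passed an adjusted p of 0.05 in edgeR, and DESeq2's Wald test gave Cdkn2a an adjusted p of 0.0268 and called 3.38% of the genes with an adjusted p there. Cdkn2c differed by -0.14 ± 0.24, and by -0.41 ± 0.16 (edgeR adjusted p = 0.244, with an unadjusted p under 0.05) without empty vector library 4. Cdkn2d (0.20 ± 0.14), Cdkn1a (-0.04 ± 0.18) and Cdkn1b (-0.17 ± 0.10) did not reach an unadjusted p of 0.05. Without the libraries numbered 3, Cdkn2a differed by 0.99 ± 0.30 and Cdkn2b by 0.73 ± 0.31. Cdkn2b did not reach an unadjusted p of 0.05 with the term for Xist (0.66 ± 0.31; Xist was held by 1 of 6 Cd31+ and 3 of 6 Cd146+ control libraries), nor without nc shRNA library 2 (0.61 ± 0.29) or empty vector library 2 (0.64 ± 0.29) of Cd31+ cells, or nc shRNA library 1 (0.57 ± 0.27) or empty vector library 5 (0.62 ± 0.31) of Cd146+ cells. These controls are the same libraries that the constructs were compared with.

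FPKM values are scaled to gene length, and with them the genes were set against each other. For Cdkn2a that length is 1172 bases, more than its p16Ink4a (852 bases) or p19Arf transcript (895 bases). Its FPKM are therefore lower than a scaling to either transcript would give. With P16, they can also hold reads of the vector cDNA. The shares and ratios below are thus approximate where they involve Cdkn2a. In the 12 control libraries, the 7 inhibitors summed to 228 to 455 FPKM (median 282). Cdkn1a had a median share of 46.8% (26.4 to 60.1%), Cdkn2a of 22.3% (11.9 to 36.3%) and Cdkn2b of 17.6% (9.22 to 30.2%). Cdkn1b (5.45%), Cdkn2c (4.10%) and Cdkn2d (3.58%) were minor, and Cdkn1c was at most 0.442%. The INK4 genes together took 32 to 70.2% of the sum (median 48.2%).

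With P16 shRNA, the share of Cdkn2a was 2.15 to 6.54% in the 6 libraries, below that of every control library. With P16 it was 31.8 to 71.1%. In Cd31+ cells, silencing moved it from 17.8 ± 5.22% to 2.60 ± 0.54%, and in Cd146+ cells from 30.5 ± 6.44% to 4.65 ± 1.64% (two-sided exact permutation p = 0.1 in both, the lowest value that 6 libraries can give). The share of all INK4 genes was 42.8 ± 12.8% with P16 shRNA and 44.0 ± 7.90% with nc shRNA in Cd31+ cells (exact permutation p = 1), and 54.2 ± 4.62% and 61.8 ± 11.7% in Cd146+ cells (exact permutation p = 0.4). Cdkn2b made up 26.9 ± 13.7% of the sum in silenced Cd31+ cells and 36.1 ± 0.884% in silenced Cd146+ cells, where the nc shRNA libraries had 25.6 ± 6.24%. This share depends on Cdkn2a in the sum, and the level of Cdkn2b itself was 130 and 138 CPM in these groups. One FPKM of Cdkn2a was accompanied by 0.511 to 1.16 FPKM of Cdkn2b in the controls, by 5.69 to 13 with P16 shRNA and by 0.161 to 0.562 with P16. With P16, the sum reached 372 to 989 FPKM, and Cdkn1a took 11.4 to 40.8% of it.

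**Figure D4:**
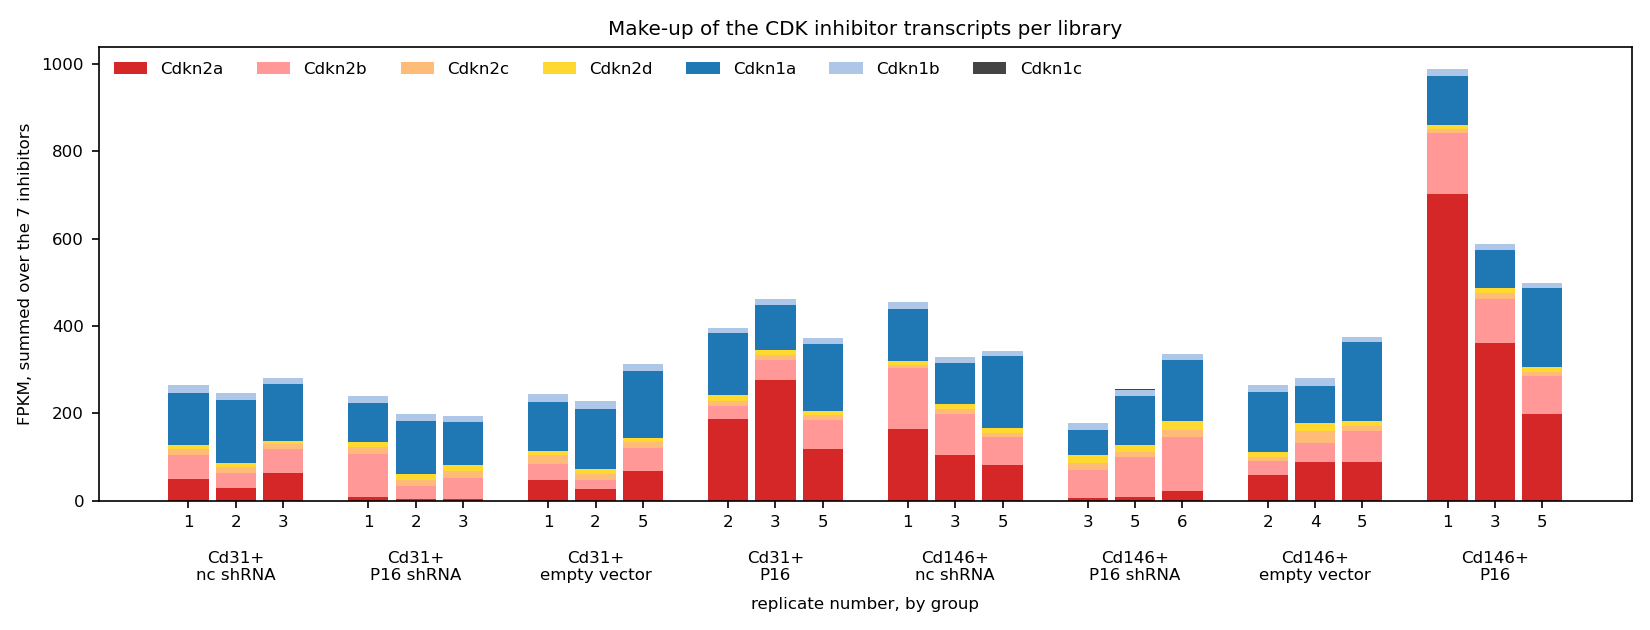
FPKM of the 7 inhibitors stacked in each of the 24 libraries, grouped by population and construct, with the replicate number under each bar. The control bars reach 228 to 455 FPKM with Cdkn1a (blue) as a large part, Cdkn2a (red) is 2.15 to 6.54% of the bar with P16 shRNA and 31.8 to 71.1% with P16.

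The partners and regulators of the inhibitors were read from 6 lists of 105 genes. Of the 18 CDK and cyclin partners, an unadjusted edgeR p under 0.05 was reached by 1 higher and 3 lower genes in silenced Cd31+ cells (22.2%, against 19.8% of all genes) and by 2 higher and 2 lower in silenced Cd146+ cells (22.2%, against 11.6%). The members with the smallest p were the same in both: Ccnd1, the cyclin that INK4 proteins keep from Cdk4 and Cdk6, stood at 164 ± 56.9 CPM with P16 shRNA and 448 ± 138 CPM with nc shRNA in Cd31+ cells (-1.45 ± 0.34, edgeR adjusted p = 0.10; with the block 4.6e-05). In Cd146+ cells it stood at 177 ± 85.7 and 500 ± 128 CPM (-1.49 ± 0.39, edgeR adjusted p = 0.382; with the block 0.00144). Ccnd2, another D-type cyclin, differed by -0.74 ± 0.20 and -0.71 ± 0.21 (edgeR adjusted p = 0.12 and 0.384, with the block 0.0052 and 0.0209). Ccnd3, also a D-type cyclin, went the other way, by 0.395 in Cd31+ and 0.453 in Cd146+ cells (edgeR adjusted p = 0.298 and 0.504). With P16, 4 partners were lower and none higher in Cd31+ cells (22.2%, against 3.73%), led by the S-phase and mitotic cyclin Ccna2 (-0.53 ± 0.12, edgeR adjusted p = 0.947). In Cd146+ cells 2 were higher and 5 lower (38.9%, against 3.53%), led by Wee1, the kinase that holds back Cdk1 (-0.71 ± 0.19, edgeR adjusted p = 0.986). The block over 12 libraries left 1 higher and 1 lower there (11.1%, against 1.78%), with a list median of -0.25 and Wee1 at -0.39. In Cd31+ cells with P16, it left 1 higher and 3 lower (22.2%, against 11.4%). These counts too are at an unadjusted edgeR p under 0.05. Without the Cd146+ libraries numbered 3, 2 partners passed this threshold in silenced cells (against 9.05% of all genes) and 2 with P16 (against 1.54%). With 1 library left out in turn, 3 to 7, 1 to 5, 3 to 7 and 2 to 9 partners passed it in the order Cd31+ silenced, Cd31+ P16, Cd146+ silenced and Cd146+ P16. Of the 14644 to 15921 genes tested in these fits, 1990 to 2893, 189 to 1037, 815 to 2350 and 221 to 1292 passed it. The median log2 fold changes of this list were 0.12, -0.11, 0.38 and -0.55 in the same order, where those of all genes were 0.00, 0.01, 0.03 and 0.00.

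Of the 13 RB and E2F genes, Rbl2, which encodes the retinoblastoma relative p130, fell in silenced Cd31+ cells from 38.1 ± 1.83 to 16.3 ± 0.435 CPM (-1.22 ± 0.10, edgeR adjusted p = 0.0115). This call, like those of Trp53inp1, Perp and Rnf123 given next, rests on all 3 silenced libraries, since 0 genes passed an edgeR adjusted p of 0.05 when any 1 of them was left out. In Cd146+ cells it stood at 37.4 ± 5.23 CPM with nc shRNA and 10.8 ± 3.21 CPM with P16 shRNA (-1.79 ± 0.27, edgeR adjusted p = 0.308; with the block 0.00192). No other gene of this list had an adjusted p under 0.05 without the block. At an unadjusted edgeR p under 0.05, 2 were higher and 2 lower in silenced Cd31+ cells (30.8%, against 19.8% of all genes). In silenced Cd146+ cells, 1 was lower (7.69%, against 11.6%). With 1 library left out in turn, 3 to 6 and 1 to 3 genes of this list passed. Among all genes tested, 1990 to 2893 and 815 to 2350 did. With P16, 0 of 13 reached an unadjusted p of 0.05 in Cd31+ cells (against 3.73%), and 3 of 13, all lower, did so in Cd146+ cells (23.1%, against 3.53%). The latter count was 1 to 4 with 1 library left out in turn, against 221 to 1292 among all genes tested. With the block over 12 libraries, the count for this list was 1 (7.69%, against 1.78%). Among the 3 was E2f7, a repressor of E2F targets, at -1.21 ± 0.38 (edgeR adjusted p = 0.986).

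The 20 genes of the p53 pathway, whose best-known target is Cdkn1a and which p19Arf acts on, were more often lower than higher among those past an unadjusted p in the silenced cells. In silenced Cd31+ cells, 2 were higher and 6 lower at an unadjusted edgeR p under 0.05 (40.0%, against 19.8%; list median -0.10), and in silenced Cd146+ cells 0 were higher and 6 lower (30%, against 11.6%; list median -0.32). With 1 library left out in turn, 3 to 7 and 5 to 8 genes of this list passed. Among all genes tested, 1990 to 2893 and 815 to 2350 did. Trp53inp1, a p53 target that promotes arrest and death, fell in Cd31+ cells from 199 ± 3.39 to 105 ± 13.4 CPM (-0.91 ± 0.12, edgeR adjusted p = 0.0223), as did Perp, a p53 target at cell junctions (-1.23 ± 0.17, edgeR adjusted p = 0.0301), which in silenced Cd146+ cells differed by 0.59 (edgeR adjusted p = 0.864). In Cd146+ cells, the smallest p-values belonged to Mdm2, the ubiquitin ligase of p53 (-0.99 ± 0.19, edgeR adjusted p = 0.382; with the block 0.00928), and to Trp53inp1 (-1.06 ± 0.21, edgeR adjusted p = 0.382; with the block 0.0157). Without the libraries numbered 3, 3 of 20 p53 pathway genes passed the unadjusted threshold in silenced Cd146+ cells, against 9.05% of all genes. With P16, 0 of 20 reached an unadjusted p of 0.05 in either population (edgeR; background 3.73% and 3.53%).

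Among 20 genes for the turnover and transcription of the CIP/KIP proteins, Rnf123, a subunit of the ligase that degrades p27 in the cytoplasm, fell in silenced Cd31+ cells (-0.66 ± 0.11, edgeR adjusted p = 0.0408) and differed by -0.81 ± 0.17 in silenced Cd146+ cells (edgeR adjusted p = 0.382; with the block 0.00617). In this list, 1 was higher and 5 lower in silenced Cd31+ cells, 2 higher and 3 lower in silenced Cd146+ cells, none with P16 in Cd31+ cells, and 1 was lower in Cd146+ cells, all at an unadjusted edgeR p (30%, 25%, 0% and 5% of the list, against 19.8%, 11.6%, 3.73% and 3.53% of all genes). Of 24 regulators of the INK4 genes, the same counts were 1 higher and 6 lower, 3 higher and 2 lower, 0 higher and 3 lower, and 1 higher and 1 lower (29.2%, 20.8%, 12.5% and 8.33%, against the same shares of all genes). Against 815 to 2350 among all genes tested, 0 to 5 of these regulators passed in silenced Cd146+ cells with 1 library left out in turn. Ets2, a factor that can activate p16Ink4a, had the smallest p among them in both silencing comparisons (-0.57 ± 0.14, edgeR adjusted p = 0.0931, and -0.91 ± 0.35, edgeR adjusted p = 0.422). With P16, Ets2 was lower as well in Cd31+ cells (-0.61 ± 0.20, edgeR adjusted p = 0.947) and differed by 0.711 in Cd146+ cells (edgeR adjusted p = 0.986). Ezh2, the Polycomb methyltransferase, had the smallest p with P16 in Cd146+ cells (-0.83 ± 0.24, edgeR adjusted p = 0.986). Of 10 imprinted neighbours of Cdkn1c, 5 or 6 were tested, and 1 gene, Nap1l4, a histone chaperone, was lower at an unadjusted p in each silencing comparison (edgeR adjusted p = 0.0958 and 0.422). This is 20.0% of the tested neighbours in Cd31+ cells, against 19.8% of all genes, and 16.7% in Cd146+ cells, against 11.6%. The count in Cd31+ cells is thus near the share of all genes.

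**Figure D5:**
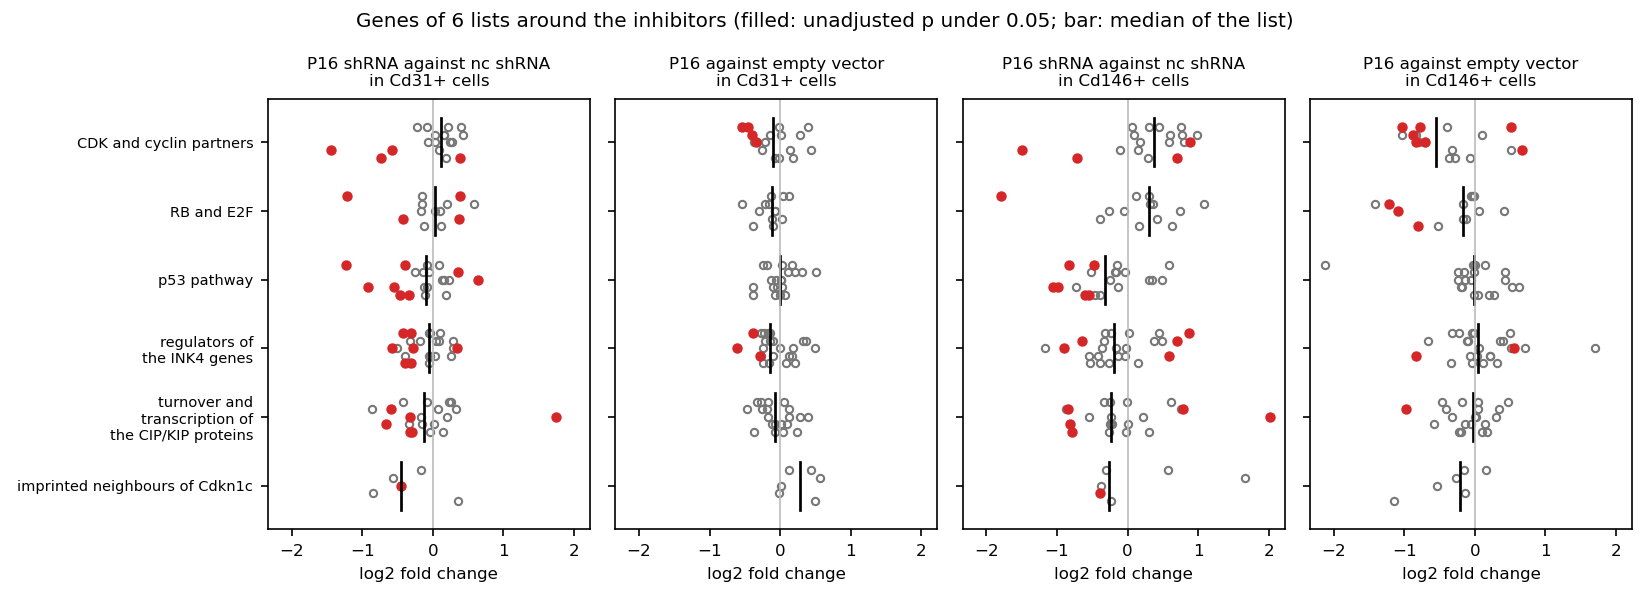
Log2 fold change of each tested gene of the 6 lists in the 4 comparisons. Filled points have an unadjusted edgeR p under 0.05, open points do not, and bars mark list medians. In each silencing comparison, 6 of 20 p53 pathway genes are filled and lower. Filled and higher are 2 in silenced Cd31+ and 0 in silenced Cd146+ cells, and with P16 0 of 20 are filled. Of all genes, 19.8% (Cd31+) and 11.6% (Cd146+) passed this threshold with silencing, and 3.73% and 3.53% with P16.

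Within 500 kb of Cdkn2a the table places 21 other protein-coding genes, and 2 were tested in any comparison, Cdkn2b and Mtap, the enzyme of methionine salvage that is next to Cdkn2a. Mtap stood at 73.0 to 127 CPM and differed by 0.18 ± 0.15, 0.06 ± 0.15, 0.31 ± 0.15 and 0.30 ± 0.18 on the log2 scale in Cd31+ silenced, Cd31+ P16, Cd146+ silenced and Cd146+ P16 cells, with edgeR adjusted p-values of 0.46 to 0.986. The highest level of any untested neighbour was 0.372 CPM, and 15 had at most 3 counts in every library.

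As a description over the 24 libraries, which share constructs and numbers, the genes whose log2 CPM was most like that of each inhibitor were found among 12162 protein-coding genes. For Cdkn2a, these were Pisd (Pearson r 0.926), Atp6v1d (0.915) and Slc49a4 (0.913). For Cdkn2b, they were Blcap (0.87), Tdrp (0.857) and Rcan1 (0.853). The genes most like Cdkn2c were Fiz1 (0.828) and the mitotic genes Plk1 (0.825) and Ccnb2 (0.82). Cdkn2d was most like Med9 (0.872), Cdk2ap1 (0.849) and Rnf7 (0.849). Cdkn1a was most like Pik3cd (0.881), Lgals3 (0.867) and Tpm3 (0.827), and among the genes most like Cdkn1b were Fam168b (0.804) and Rmnd5a (0.784). Among the inhibitors themselves, the highest r was that of Cdkn2c with Cdkn2d, 0.632, and the neighbours Cdkn2a and Cdkn2b had an r of 0.273. Cdkn1a had negative values with Cdkn2c (-0.493), Cdkn2d (-0.487) and Cdkn1b (-0.494).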

How the data were processed

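RNA sequencing of 24 libraries, 3 in each of 8 groups, was analysed, with groups and replicate numbers taken from the labels. The counts are, as deposited by the authors, whole reads per gene without normalization. The deposited FPKM values were scaled by the authors to gene length and library size and were used for shares of the summed inhibitors. The submitters' processing notes name fastp and mm9, and the counter is not given in the sources used here. The authors' own comparison columns (group means, log2 fold changes, p-values) were not used. Gene length, as deposited, was only copied.

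Counts were fitted in R 4.3.3 with edgeR 4.0.16 (filterByExpr, TMM, robust quasi-likelihood test, two-sided, Benjamini-Hochberg over all genes tested). For each construct, its 3 libraries were set against the 3 of its control, differences between populations were contrasts over 24 libraries, and the control libraries were compared between populations with the construct as a term. Standard errors are the log2 fold change divided by the square root of F, and 95% intervals use the t quantile at the fit's total degrees of freedom. CPM were TMM-normalised over 24 libraries. DESeq2 1.42.0 gave an alternative. Other alternatives were no filter on low counts, DESeq2's size factors, a fit over 12 libraries, the replicate block, each library left out in turn, and, chosen after seeing the data, a term for Xist and the omission of the Cd146+ libraries numbered 3. Python 3.11.15 with pandas 2.3.3, scipy 1.17.1 and matplotlib 3.10.9 was used for summaries, exact tests and figures.

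Within a population, libraries of the same number deviated together from their group means. In Cd31+ cells, their r was 0.3428 to 0.6778 (13 pairs, median 0.5162), against -0.4733 to 0.381 for different numbers (median -0.1614). In Cd146+ cells, it was 0.3734 to 0.8575 (10 pairs, median 0.6959), against -0.7023 to 0.4484 (median -0.06774). The ranges overlap, but the medians differ, and the labels' numbers were taken to pair samples within a population. Libraries of 1 number all held Xist or all lacked it, so the block also takes up the split by Xist. Across populations, libraries of the same number did not deviate together in every pair (27 pairs, r -0.04752 to 0.5944, median 0.1042, against a median of -0.00752 for different numbers), and numbers were not used as pairs there. The labels do not say that the replicates are separate animals, and p-values then measure only the spread between these samples. Counting error is the only error that depth covers.

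The members and lists were chosen with earlier results of these data known. Named were the 7 members, the 3 genes most like each (Pearson r of log2(CPM + 1), mean of at least 1 CPM), protein-coding genes within 500 kb of Cdkn2a, and from each list the genes with an adjusted p under 0.05 (at most 3) or else the 2 with the smallest p. The values of 2 genes that this rule names are not reported here.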

Additional observations from a re-analysis of the deposited data

How the results depend on the processing

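With 3 libraries per group, the adjusted p-values depended strongly on the fit, while the direction of Cdkn2a was the same under every alternative in all 4 silencing and overexpression comparisons. For P16 shRNA in Cd31+ cells, 1 member had an adjusted p under 0.05, and 3 did with the replicate block over 12 libraries or over 6 (16.8% and 18.8% of all genes). Leaving out 1 library gave 0 to 1 members and log2 fold changes of Cdkn2a of -3.39 to -2.81. For P16 in Cd31+ cells, 0 members passed, but 1 (Cdkn2a) did in DESeq2's Wald test (2.02) and with the replicate block over 6 libraries (1.77). For P16 shRNA in Cd146+ cells, 0 passed, but 1 (Cdkn2a, -3.21) did in DESeq2 and 3 (Cdkn2a at -3.39) with the block over 12 libraries. For P16 in Cd146+ cells (Cdkn2a 2.44) and for the populations with control constructs, 0 passed, and 1 did in DESeq2. The block changed no other call at an adjusted p of 0.05. The block over 6 libraries could not be fitted for P16 in Cd146+ cells, where the groups share only the number 5. The 2 alternatives chosen after seeing the data called no member. Values of members that had not been called changed sign as follows. Without the Cd146+ libraries numbered 3, Cdkn1a was 0.13 with P16 in Cd146+ cells, 0.14 for the difference of the P16 effect and 0.04 between populations, Cdkn2b was 0.08 and Cdkn1b -0.05 with P16 shRNA in Cd146+ cells, and the difference of the P16 shRNA effect was 0.11 for Cdkn2a. With the term for Xist, Cdkn1a was 0.03 for the difference of the P16 effect and -0.15 for that of the P16 shRNA effect. With the replicate block, the difference of the P16 effect was -0.39 for Cdkn2a, -0.26 for Cdkn2b, 0.18 for Cdkn2c and 0.82 for Cdkn1c, that of the P16 shRNA effect was -0.30 for Cdkn1a and -0.03 for Cdkn2c, and Cdkn1a was 0.01 with P16 in Cd31+ cells (6 libraries). With 1 library left out in turn, ranges that crossed 0 were, for P16 shRNA in Cd31+ cells, -0.33 to 0.63 for Cdkn2b; for P16 in Cd31+ cells, -0.05 to 0.18 for Cdkn2d and -0.14 to 0.12 for Cdkn1a; for P16 shRNA in Cd146+ cells, -0.37 to 0.23 for Cdkn2b, -0.59 to 0.00 for Cdkn1a and -0.11 to 0.08 for Cdkn1b; and for P16 in Cd146+ cells, -0.43 to 0.18 for Cdkn1a and -0.25 to 0.02 for Cdkn1b. The same ranges for the difference of the P16 shRNA effect were -0.77 to 0.19 for Cdkn2a, -0.70 to 0.24 for Cdkn2b, -0.23 to 0.33 for Cdkn1a and -0.03 to 0.21 for Cdkn1b, and for the difference of the P16 effect -0.18 to 0.77 for Cdkn2a, -0.50 to 0.40 for Cdkn2c and -0.40 to 0.20 for Cdkn1a. Between the populations, Cdkn1a ranged from -0.15 to 0.07. The cause of these shifts was not tested. Depth limits Cdkn1c, at a median of 5 counts.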
